A study of Mus musculus with 18 samples.

Results

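The comparison described here set the sgRNA content of ITPK1-KO cells against that of ITPK1-WT cells recovered from the 4 vehicle mice of a pooled CRISPR knockout screen, where no antibody was given. It took all libraries of mice 1 to 4, which are 8 of the 18 libraries of the series (4 of each background), and covered all 76 target genes of the sgRNA pool. The cells were sensBa/F3, a line derived from the mouse pro-B line Ba/F3, which depends on interleukin-3 in culture. ITPK1-WT cells carried an intact Itpk1 gene, and ITPK1-KO cells were a pool of 6 single-cell clones with deletions in it. Each background was transduced separately with the same pool of lentiviral sgRNAs and grown for 10 days, so every group compared here carries the library. ITPK1-WT cells were then stained with CellTrace violet and ITPK1-KO cells with CellTrace yellow, equal parts were mixed, and 20000000 cells were injected into the peritoneum of each hCD89-transgenic mouse, which carries the human myeloid receptor for IgA. Vehicle mice received PBS, and the other 4 mice of the series received anti-hHer2 IgA. After 16 h viable cells were sorted by dye, and 2000000 were taken for each of the 8 vehicle libraries. Mouse strain, sex and age are not given in the labels. Background, dye, transduction and clonal origin go together in this design and cannot be told apart.

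ITPK1 and IPMK are kinases that add phosphates to inositol phosphates, and both feed the synthesis of the highly phosphorylated inositols. In human cells these products are known to bind MLKL, the executioner of necroptosis, a lytic form of programmed death. In a pooled knockout screen, the abundance of an sgRNA follows the number of cells that carry it, so sgRNAs against a gene that cells need for growth are lost over time. Fewer cells at transduction and slower growth afterwards give the same low abundance in such DNA counts. Non-targeting sgRNAs have no target in the genome and mark the level of cells without a knockout.

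The sgRNAs that carry the largest differences are shown from 5′ to 3′ as the authors deposited them, with the 10 bases nearest to the PAM (the seed of a Cas9 guide) in capitals. They are grouped by target gene, since the sgRNAs of a gene share a target but not a sequence: among the library's 76 genes, 1 (CASP6) had a pair of sgRNAs with a common run of 10 or more bases.
Itpk1 sg-1: gttcgaacggCCAAGCGATG
Itpk1 sg-2: cgaacttatcCGAAAGATCG
Itpk1 sg-3: ggtgggcgagTCCTACACAG
Ipmk sg-1: caaacgatagAACTTTGGCG
Ipmk sg-2: agacgccgtaGTATTTGGGC
Ipmk sg-3: ctctaccttcTGAATACTGG
Txnl4b sg-1: actgtgtgtaAACCGGCGTG
Txnl4b sg-2: ccaggcgatcAAAAGCACTG
Txnl4b sg-3: catccagctgCAGACAGACG
Daxx sg-1: tcagcacatcTCCATAATCG
Daxx sg-2: ggagacatcaGACCACCCTG
Daxx sg-3: gcgggcctccTGCAAATACG
Grb2 sg-1: aaacacttacTTGACGGACA
Grb2 sg-2: aatacttcccGGCTCCGTCG
Grb2 sg-3: cagcaaacagCGGCATGACG

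Read totals of the 8 libraries ran from 317564 (ITPK1-KO, mouse 3) to 704992 (ITPK1-KO, mouse 4), and non-targeting sgRNAs took between 13.4% and 13.7% of the reads. Counts were scaled to these 24 sgRNAs, and a gene's level is given as its reads summed over 3 sgRNAs in percent of the average for any 3 non-targeting sgRNAs. The log2 difference is ITPK1-KO minus ITPK1-WT, fitted with the mouse as a block by edgeR's quasi-likelihood test on counts summed per gene, with Benjamini-Hochberg adjustment over 76 genes and a threshold of 0.05. By this test 40 of 76 genes differed between backgrounds (52.6%), 13 higher (17.1%) and 27 lower (35.5%) in ITPK1-KO cells. Under TMM scaling over all sgRNAs the split was 19 higher and 20 lower. Of the 40 genes, 38 lay on the same side of 0 in all 4 mice and 29 had their 3 sgRNAs moving the same way. Among the 36 genes not called, 11 also lay on the same side in all 4 mice. The calls were made from these same mice and sgRNAs, so such agreement is not independent support. Most calls were small, with 21 of 40 under 0.1 on the log2 scale. Among single sgRNAs, 95 of 252 passed (37.7%), 33 higher and 62 lower. Without mouse 3 the higher ones numbered 19, and DESeq2's Wald test called 19 higher and 41 lower.

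The non-targeting sgRNAs show how far sgRNAs without a target differed between the pools. Their log2 differences ran from −0.13 to 0.10 with an SD of 0.048 over 24 sgRNAs. The sgRNA test called 3 of them (12.5%), with 1 higher and 2 lower in ITPK1-KO cells. A p-value here rests on a spread between 4 mice that edgeR shares between genes, so it does not measure a gene's own spread. All mice received the same transduced pool of each background, so it also leaves out any difference between transductions. In 16 of 76 genes the difference was larger in size than that of the farthest non-targeting sgRNA, 4 higher and 12 lower, and all 16 passed the test. The measures are unlike, since a gene value sums 3 sgRNAs and a non-targeting value is that of a single sgRNA. The other 24 calls lay within 0.13 of 0.

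**Figure D1:**
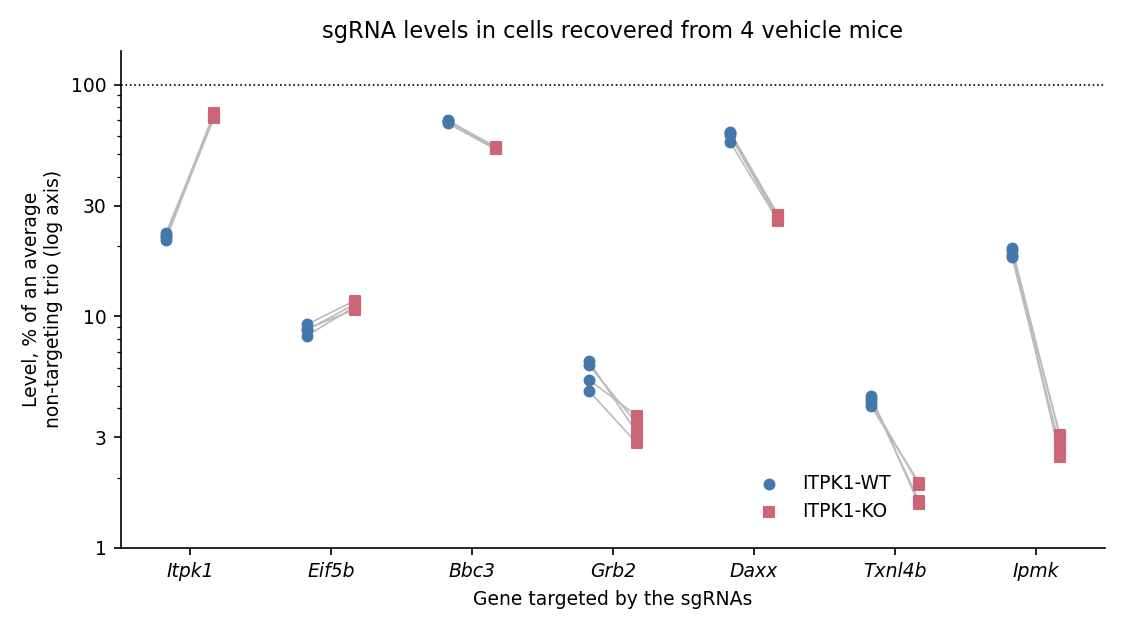
Levels of sgRNAs in each vehicle library for the 7 genes that passed the test with a log2 difference of at least 0.3 and 3 sgRNAs moving the same way. The log axis gives the summed reads of a gene in percent of an average non-targeting trio (dotted line at 100), circles are ITPK1-WT, squares are ITPK1-KO, and grey lines join the libraries of a mouse. In all 7 genes the 4 ITPK1-KO libraries lie apart from the 4 ITPK1-WT libraries, but the genes were chosen by their difference in these same libraries. Over all genes the libraries lay apart in 35 of 76 (46.1%).

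Both inositol phosphate kinases of the library differed most, in opposite directions. In ITPK1-WT cells of mice 1 to 4, sgRNAs against Itpk1 stood at 22.8%, 21.3%, 22.2% and 21.9% of the non-targeting level. In ITPK1-KO cells of the same mice they stood at 73.0%, 73.3%, 75.0% and 71.6%. The backgrounds did not overlap, and the low level was in the cells that still carry the gene. The log2 difference was 1.73 (SD 0.047, n = 4 mice, higher in 4 of 4, adjusted p = 2.38e-144 by edgeR), a 3.31-fold higher level. The cassettes were counted here, not the Itpk1 locus, so these values do not measure the deletion itself.

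The 3 sgRNAs against Itpk1 were unequal. Itpk1 sg-1 differed by 2.48 and Itpk1 sg-3 by 2.45, whereas Itpk1 sg-2 differed by 0.82. Itpk1 sg-2 was also the most abundant of them in ITPK1-WT cells, with a mean of 1247 reads against 584 for sg-1 and 281 for sg-3. Over all 8 libraries sg-1 was the most abundant, and without it the log2 difference of Itpk1 was 1.29.

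Ipmk encodes the inositol polyphosphate multikinase. In mice 1 to 4, ITPK1-WT cells held its sgRNAs at 19.7%, 19.2%, 17.95% and 18.3% of the non-targeting average, and ITPK1-KO cells at 3.00%, 2.47%, 2.71% and 3.07%. They were thus scarce in both backgrounds and scarcer in every ITPK1-KO library. The log2 difference was −2.73 (SD 0.16, n = 4, lower in 4 of 4, adjusted p = 1.99e-108 by edgeR), which left 15.1% of the ITPK1-WT level. It was the largest difference of the 76 genes.

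The fitted difference was −2.16 for Ipmk sg-1, −3.99 for sg-2 and −4.01 for sg-3. Ipmk sg-3 had a mean of 782 reads in ITPK1-WT libraries, against 44.0 with ITPK1 deleted. Ipmk sg-2 was rare everywhere, with 38, 32, 20 and 36 reads in ITPK1-WT cells of mice 1 to 4 and 0, 3, 0 and 4 reads in ITPK1-KO cells. A count of 0 allows a share of up to 0.000632% in mouse 1 and 0.000945% in mouse 3 (3 reads of the library, counting error only), and these were the only counts of 0 in the 8 libraries. As a sum, the gene value rests mostly on sg-1, the most abundant of them, and without it the difference was −4.01.

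**Figure D2:**
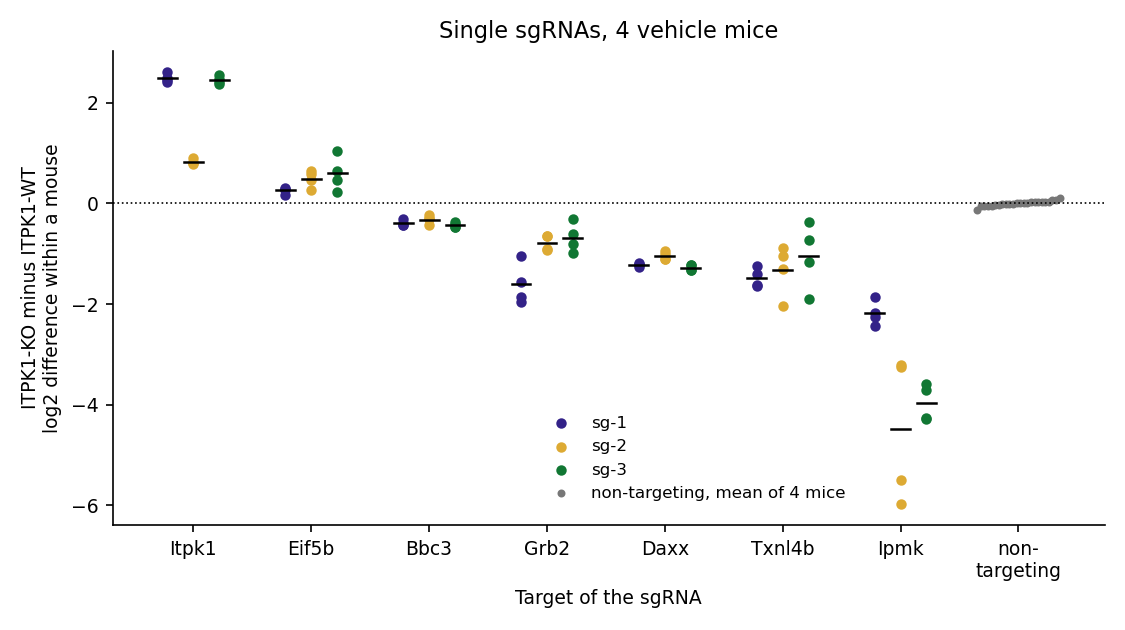
Log2 difference (ITPK1-KO minus ITPK1-WT) of single sgRNAs within each of 4 vehicle mice, with 0.5 reads added, for the 7 genes shown before and, as a mean of 4 mice each, for the 24 non-targeting sgRNAs. Points are mice, bars are means, and colours separate sg-1, sg-2 and sg-3. Itpk1 sg-2 lies below the other Itpk1 sgRNAs, and Ipmk sg-2 spreads widely since it had 0 to 4 reads in ITPK1-KO libraries.

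Among 3 genes with core cell functions, all passed (against 52.6% of all 76 genes), and their sgRNAs were scarce in both backgrounds. This list too was made with earlier results known, so neither the share nor the common scarcity is independent support. Txnl4b encodes a thioredoxin-like protein related to a splicing factor subunit. ITPK1-WT cells of mice 1 to 4 held its sgRNAs at 4.09%, 4.26%, 4.52% and 4.41% of the non-targeting average, and ITPK1-KO cells at 1.91%, 1.87%, 1.54% and 1.59%. The difference was −1.31 (SD 0.22, n = 4, lower in 4 of 4, adjusted p = 2.16e-17 by edgeR), with no overlap. Its sgRNAs differed by −1.48 (sg-1), −1.29 (sg-2) and −0.90 (sg-3), the last from 83.0 to 41.5 mean reads.

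Grb2 encodes an adaptor that links activated receptors to RAS signalling. Levels were 5.31%, 4.75%, 6.14% and 6.38% in ITPK1-WT cells, and with ITPK1 deleted they were 3.71%, 2.83%, 3.44% and 3.14%. The difference was −0.79 (SD 0.21, n = 4, lower in 4 of 4, adjusted p = 2.15e-12 by edgeR), and it ranged from −0.52 in mouse 1 to −1.02 in mouse 4. The rarest of its sgRNAs, sg-1, whose mean was 59.5 reads in ITPK1-WT libraries, differed by −1.58, against −0.80 for sg-2 and −0.68 for sg-3.

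Eif5b encodes a translation initiation factor that joins the ribosomal subunits. It moved the other way, from 8.24%, 9.21%, 8.71% and 8.83% in ITPK1-WT cells to 11%, 11.7%, 11.3% and 10.7% in ITPK1-KO cells. The difference was 0.35 (SD 0.059, n = 4, higher in 4 of 4, adjusted p = 3.86e-08 by edgeR). The level of every ITPK1-KO library was above that of every ITPK1-WT library. Between mice the values of Txnl4b and Grb2 varied more than those of abundant targets (SD 0.22 and 0.21, against 0.038 for Daxx and 0.015 for Bbc3), and the reads behind a library were fewer, at 83 to 630 summed over 3 sgRNAs.

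Daxx encodes a histone chaperone that was first described as a partner of the death receptor FAS. Its sgRNAs were abundant in ITPK1-WT cells, at 62.6%, 60.5%, 62.0% and 56.6% of the non-targeting average, and stood at 27.4%, 26.2%, 26.6% and 25.8% in ITPK1-KO cells. The difference was −1.18 (SD 0.038, n = 4, lower in 4 of 4, adjusted p = 3.24e-109 by edgeR), or 44.0% of the ITPK1-WT level. The 3 sgRNAs were close to each other at −1.22, −1.04 and −1.27, each with a mean of 700 reads or more in either background.

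Daxx was listed together with 7 genes of the TNF receptor complex and the FADD and caspase-8 branch, and these differed far less. With Daxx, 6 of the 8 genes on this list passed (75%, against 52.6% of all 76 genes), 2 higher and 4 lower, with a median of −0.071 against −0.014 over all genes. Spata2, which bridges the deubiquitinase CYLD to the receptor complex, was lower by −0.19 (SD 0.076, adjusted p = 4.44e-09 by edgeR, n = 4), with levels of 38.7% ± 1.66 in ITPK1-WT cells against 34.1% ± 1.30 (SD, n = 4). Cyld itself was at −0.091 (adjusted p = 0.000601) and Fadd, the adaptor for caspase-8, at −0.12 (adjusted p = 1.93e-05, both by edgeR). Each of these calls was lost in 1 of 17 alternative settings, and Cyld sg-2 stood at 0.029, opposite to the gene. Ripk1, the kinase between survival and death in this complex, was higher by 0.11 (adjusted p = 2.44e-06 by edgeR), from 71.2%, 70.7%, 71.6% and 72.2% to 80.0%, 76.6%, 73.8% and 76.7%, with no overlap. Birc2, an inhibitor of apoptosis that ubiquitinates RIPK1, was at 0.053 (adjusted p = 0.0166 by edgeR). Its call was lost in 3 of 17 alternative settings. Among them were the fit without mouse 2 (adjusted p = 0.148 by edgeR) and DESeq2's Wald test (adjusted p = 0.0544). None of its 3 sgRNAs passed alone (adjusted p from 0.051 to 0.58 by edgeR). Casp8 (−0.029) and the receptor Tnfrsf1a (−0.051) did not pass.

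Among the genes of mitochondrial apoptosis, Bbc3 and Bax differed most. Bbc3 encodes PUMA, a BH3-only protein that triggers BAX and BAK. Its levels were 69.9%, 69.4%, 70.0% and 68.0% in ITPK1-WT cells, against 53.8%, 53.4%, 52.9% and 52.5% in the ITPK1-KO cells of the same mice. The difference was −0.38 (SD 0.015, n = 4, lower in 4 of 4, adjusted p = 2.95e-40 by edgeR), with −0.39, −0.32 and −0.43 for its 3 sgRNAs. Bax, one of the pore-forming effectors, was lower by −0.20 (SD 0.014, adjusted p = 6.09e-20 by edgeR, n = 4). It went from 86.0%, 86.9%, 88.1% and 85.8% to 76.0%, 75.7%, 76.7% and 74.1%, so both of these had no overlap between backgrounds. The other pore protein, Bak1, stood at −0.012 (adjusted p = 0.657 by edgeR).

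All 6 BH3-only genes passed (against 52.6% of all genes), 1 higher and 5 lower, with a median of −0.049. Under TMM scaling 3 of the 6 passed by edgeR, namely Bbc3, Bcl2l11 and Bad. Apart from Bbc3 they lay within the range of the non-targeting sgRNAs, from −0.057 for Bcl2l11, which encodes BIM, to 0.069 for Bad, and the sgRNAs of Bid and of Bmf did not all move one way. With a mouse left out, the call of Bad was lost in 3 of 4 fits (without mouse 1, 2 or 3), that of Bmf in 2 (without mouse 1 or 3), and those of Bid and Bcl2l11 in 1 each (without mouse 2). Of 7 genes of the apoptosome, its inhibitors and the executioner caspases, 3 passed (42.9%, against 52.6% of all genes), 1 higher and 2 lower (median 0.0046). The apoptosome scaffold APAF1 was higher by 0.095 (adjusted p = 1.68e-05 by edgeR, higher in 4 of 4 mice). The initiator Casp9 (0.0046), CASP6 (0.012), CASP2 (−0.033) and the mitochondrial IAP antagonist Diablo (0.021) did not pass.

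**Figure D3:**
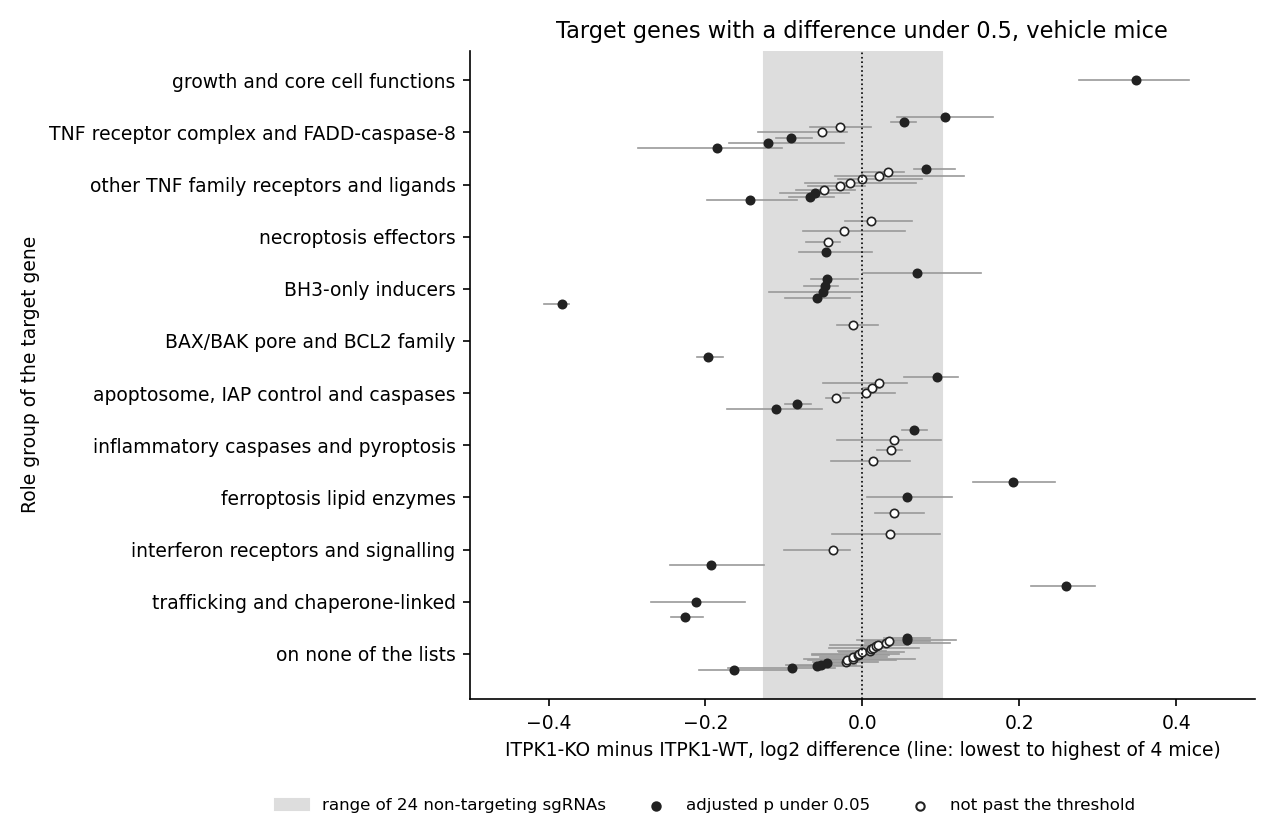
Log2 difference (ITPK1-KO minus ITPK1-WT, vehicle mice) of the 71 target genes with a difference under 0.5, by role group. Points are fitted values, filled where the adjusted p was under 0.05, lines run from the lowest to the highest of 4 mice, and the grey band spans the 24 non-targeting sgRNAs. Itpk1, Ipmk, Txnl4b, Daxx and Grb2 lie beyond the axis and are not drawn.

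Of 4 necroptosis genes (3 in the RIPK3 and MLKL branch and the nucleic acid sensor Zbp1, which engages RIPK3), 1 passed, or 25% against 52.6% of all genes. This was Zbp1, at −0.046 (adjusted p = 0.0160 by edgeR, lower in 3 of 4 mice), a call lost in 3 of the 4 fits that left out a mouse. The phosphatase Pgam5 (−0.044), the kinase Ripk3 (−0.024) and its substrate Mlkl (0.012) missed the threshold. The 4 inflammatory caspase and pyroptosis genes ran from 0.013 for the pore former Gsdmd to 0.066 for Casp12, which was the 1 of 4 to pass (25%, against 52.6% of all genes; adjusted p = 0.00214 by edgeR). Its call was lost without mouse 2 (adjusted p = 0.0598) and without its most abundant sgRNA (adjusted p = 0.131, both by edgeR).

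Of 10 other TNF family receptors and partners, 4 passed (40%, against 52.6% of all genes), 1 higher and 3 lower, with a median of −0.022 against −0.014 over all genes. The call of Tnfrsf19 was lost without mouse 2 (adjusted p = 0.0598 by edgeR). The costimulatory receptor Cd27 was lower by −0.14 (SD 0.048, adjusted p = 2.78e-08), Tnfrsf19 by −0.066 and the death receptor Tnfrsf10b by −0.060, and Tnfaip8l1 was higher by 0.081 (adjusted p = 4.86e-05, by edgeR, n = 4). The death receptor Fas (0.021), Tnfrsf1b (−0.049), Tnfrsf8 (−0.00026), Tnfrsf21 (−0.028), Tnfrsf25 (0.033) and the lymphotoxin receptor Ltbr (−0.016) did not pass. Of the ferroptosis enzymes, Acsl4, which loads membranes with polyunsaturated fatty acids, was higher by 0.19 (SD 0.049, adjusted p = 9.37e-07 by edgeR, n = 4). It went from 21.3% ± 0.368 to 24.4% ± 1.04 (SD, n = 4). The lipoxygenase Alox12 was at 0.057 (adjusted p = 0.0226 by edgeR), and Alox15, at 0.040, did not pass. The calls of Alox12 and Tnfrsf10b were each lost in 3 of the 4 fits that left out a mouse.

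Of 3 interferon receptor subunits, 1 passed (33.3%, against 52.6% of all genes). Ifnar1, a subunit of the type I receptor, was lower by −0.19 (SD 0.050, adjusted p = 3.28e-12 by edgeR, n = 4), from 54.8% ± 1.06 in ITPK1-WT cells to 47.9% ± 2.33 (SD). The type II receptor subunits Ifngr1 (0.036) and Ifngr2 (−0.038) did not pass. The difference between the receptors was not tested.

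All 3 genes grouped as trafficking and chaperone-linked passed (against 52.6% of all 76 genes). The group was formed with earlier results of these data known, so this share is not independent support. Tmem57, which encodes macoilin, was higher by 0.26 (SD 0.038, adjusted p = 1.22e-24 by edgeR, n = 4). Its level went from 59.9%, 61.8%, 60.4% and 63.2% in ITPK1-WT to 73.6%, 71.8%, 73.8% and 74.8% in ITPK1-KO cells, with no overlap. Hspbap1, a partner of a small heat shock protein, was lower by −0.23 (SD 0.021, adjusted p = 6.54e-21 by edgeR), at 76.8% ± 1.44 and 65.7% ± 1.04 (SD, n = 4). Commd4, of the COMM domain family that works in endosomal sorting, was lower by −0.21 (SD 0.050, adjusted p = 3.23e-19 by edgeR), at 77.1% ± 2.39 and 66.7% ± 3.05 (SD, n = 4). Commd4 sg-2 stood at −0.060 (adjusted p = 0.181 by edgeR), against −0.24 for sg-1 and −0.35 for sg-3.

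The remaining 21 genes were on none of the role lists, and many of them are known from tissues other than the B lineage. Of these 7 passed (33.3%, against 52.6% of all genes), 2 higher and 5 lower, with a median of −0.0042. Parp2, a DNA damage-sensing polymerase, was the 1 gene of them beyond the non-targeting range, at −0.16 (SD 0.053, adjusted p = 2.32e-10 by edgeR, lower in 4 of 4 mice). The others that passed ran from −0.090 for Atp6v1g2, a subunit of the vacuolar proton pump, to 0.057 for the olfactory receptor Olfr1404. Each of these other calls was lost in at least 1 of 17 alternative settings, that of Atp6v1g2 in 2 and that of Kcnip1 in 11. The sgRNAs of Atp6v1g2, Olfr1404, S100a7a and Sycp2 did not all move one way. The 14 that did not pass lay between −0.021 and 0.034. Over all genes, levels in the 4 ITPK1-KO libraries and the 4 ITPK1-WT libraries did not overlap in 35 of 76 (46.1%).

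The pools already differed before injection. In the single library per background from that time, the level of Itpk1 was 24.5% with the gene intact and 68.2% without it, a log2 difference of 1.47, against 1.73 in vehicle mice. The corresponding values before injection and in vehicle mice were −3.06 and −2.73 for Ipmk, −1.23 and −1.31 for Txnl4b, −1.07 and −1.18 for Daxx, −0.71 and −0.79 for Grb2, −0.43 and −0.38 for Bbc3, and 0.27 and 0.35 for Eif5b. Of the 40 genes called in vehicle mice, 35 had the same sign before injection, 11 of 13 higher and 24 of 27 lower. Acsl4 (−0.012 before injection) and Cyld (0.057) were among the 5 that did not. Most of the 36 genes not called also had the same sign at both times, so this agreement is not particular to the called genes.

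Across genes, Pearson's r between the difference before injection and that in vehicle mice was 0.985 over 76 genes and 0.758 over the 69 without Itpk1, Ipmk, Txnl4b, Daxx, Grb2, Bbc3 and Eif5b. Over the 24 non-targeting sgRNAs it was 0.586. Both sides share the transduced pools, and genes are not independent replicates. The starting libraries have no replicate, so no difference from the start was tested, and their non-targeting sgRNAs spread more widely (SD 0.098). By value, Itpk1 moved by 0.25, Acsl4 by 0.20, Ipmk by 0.33, Commd4 by −0.12 and Cyld by −0.15 from before injection to vehicle mice. The read-file names of the starting libraries carry a series of sample numbers other than those of the vehicle libraries, and the part of that in these shifts was not tested.

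**Figure D4:**
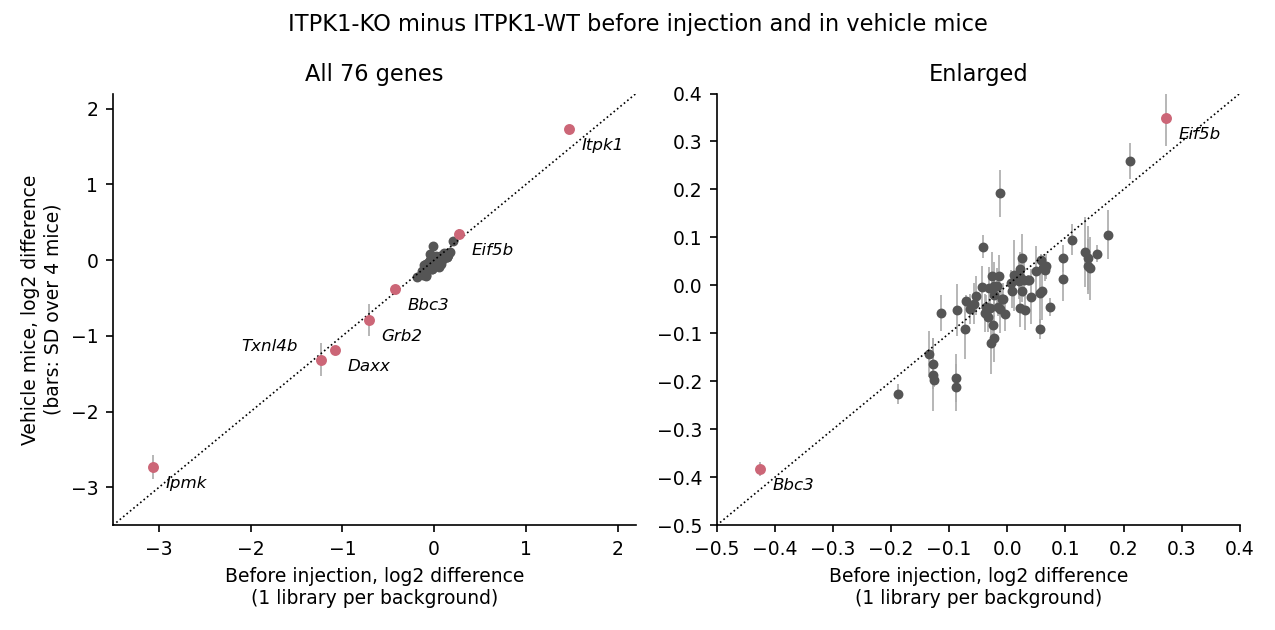
Log2 difference (ITPK1-KO minus ITPK1-WT) of each target gene before injection (horizontal axis, 1 library per background) and in vehicle mice (vertical axis, bars are the SD over 4 mice), for all 76 genes and enlarged around 0. The dotted line marks equal values. Ipmk, at −3.06 and −2.73, Itpk1, at 1.47 and 1.73, and Acsl4, at −0.012 and 0.19, lie farthest from it, all above.

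To see where vehicle mice differ from mice given IgA, the background difference was compared between the arms in a fit of the 16 recovered libraries. It differed for 8 of 76 genes (10.5%, interaction term in edgeR's quasi-likelihood test, adjusted over 76 genes), 1 higher and 7 lower in IgA mice. The 7 became 14 without mouse 1, 18 without mouse 6, 4 without mouse 2, 3 or 8, and 3 under TMM scaling. Itpk1 had 1.73 in vehicle and 1.21 in IgA mice (adjusted p = 1.78e-27), and Ipmk −2.73 and −3.38 (adjusted p = 2.46e-07). Commd4, lower in ITPK1-KO cells of vehicle mice at −0.21, stood at 0.0092 in IgA mice (adjusted p = 4.51e-09). Ripk1 went from 0.11 to −0.12 (adjusted p = 3.90e-11) and Tmem57 from 0.26 to 0.14 (adjusted p = 0.00557). Itpk1, Ipmk, Commd4 and Ripk1 also passed by edgeR under TMM scaling, where Tmem57 did not (adjusted p = 0.0833). The median gene stood at −0.029 in this comparison and at 0.0082 under TMM.

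For Daxx, Txnl4b, Grb2, Bbc3 and Eif5b the interaction did not pass (adjusted p from 0.0507 to 0.823 by edgeR). Their values were −1.18 and −1.14 for Daxx, −1.31 and −1.44 for Txnl4b, −0.79 and −0.85 for Grb2, −0.38 and −0.48 for Bbc3, and 0.35 and 0.25 for Eif5b in vehicle and IgA mice. The vehicle libraries carry read-file sample numbers of a single series, and the libraries of 3 of the 4 IgA mice carry those of another, so arm and series largely go together. In 3 of the 4 IgA mice fewer cells were sorted than in vehicle mice (657000 to 2000000 per IgA library), and the part of this in the differences was not tested.

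**Figure D5:**
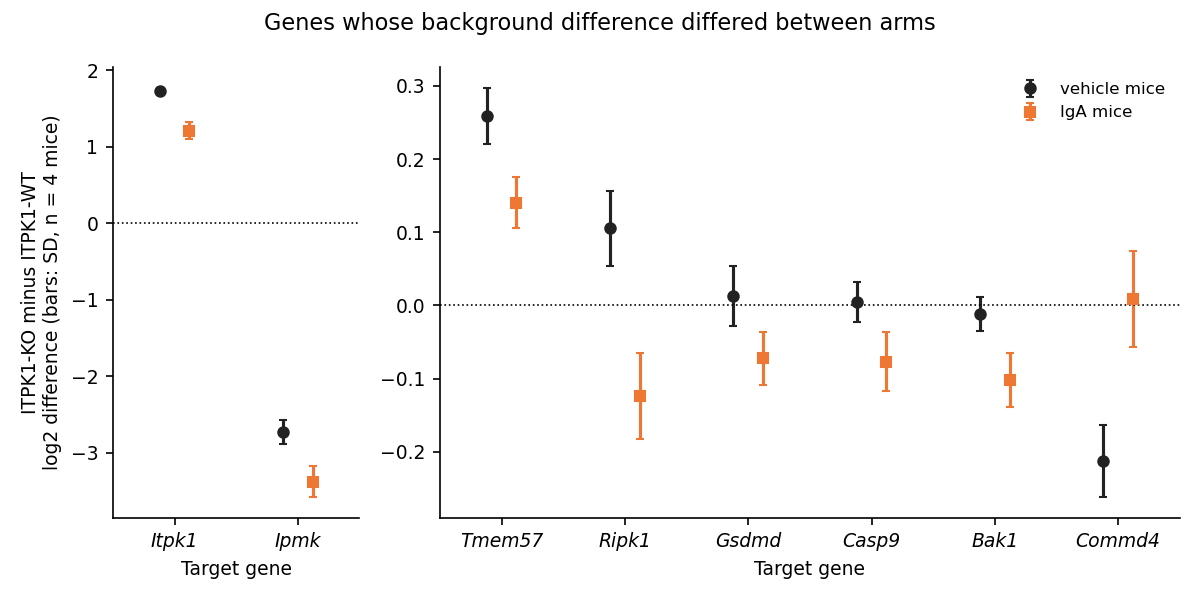
Log2 difference (ITPK1-KO minus ITPK1-WT) in vehicle mice (circles, fitted value) and IgA mice (squares, mean) for the 8 genes whose difference changed between the arms, with bars for the SD over 4 mice. The vertical axes of both panels differ. The circle of Commd4 lies below 0 and its square at 0.0092, and Ripk1 has its circle above 0 and its square below.

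The evenness of the libraries differed little. The Gini index, which is 0 when all sgRNAs are equally abundant, averaged 0.242 ± 0.00128 over ITPK1-WT libraries and 0.246 ± 0.00191 over ITPK1-KO libraries (SD, n = 4). It was higher in ITPK1-KO cells of all 4 mice (difference 0.00440, SD 0.00301, exact two-sided sign-flip permutation p = 0.13, the smallest that 4 pairs allow).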

How the data were processed

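The authors deposited raw counts, whole reads per sgRNA and library. Per the labels and the design text, the authors matched reads to the guide library, kept perfect matches and scored guides by MAGeCK RRA 0.5.6. Their scores compare arms and were not used. Which aligner they ran is not given in the sources used here. Arm, dye and cells sorted (cells in units of M, per the file headers) came from the deposited legend. Its sample numbers name the count columns and its read-file names match the labels.

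Libraries were scaled by the median ratio of the 24 non-targeting sgRNAs. Counts per sgRNA (mean of at least 10 reads) and summed per gene were tested in R 4.3.3 with edgeR 4.0.16 and the mouse as a block, since both libraries of a number come from 1 animal. Over the 237 sgRNAs that averaged 500 reads or more, deviations of the libraries of a mouse correlated at 0.00785 to 0.103. Within a background, pairs of libraries differed by more than sampling noise (chi-square per degree of freedom 2.24 to 2.79), so none were duplicates. The labels mention no molecular identifiers, so intervals and floors cover counting error only. The procedure was tested on simulated data. Alternatives used DESeq2 1.42.0 and limma 3.58.1, other scalings and filters, and each mouse left out.

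Members and lists were chosen with earlier results of these data known, so the share of a list that passed is not independent support. Values per library are given for Itpk1, Ipmk and genes that passed with 3 sgRNAs moving the same way and a log2 difference of at least 0.3 (at most 12). The values per library of Bax, Ripk1 and Tmem57 were added after they were seen. Gene names are those of the files, and all 76 matched RefSeq symbols (70) or synonyms (6) of GRCm38.p6. The files name no build, so no coordinates are given. Some of the 76 genes are counted but not named here.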

Additional observations from a re-analysis of the deposited data

Results flagged for a closer look

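The difference between backgrounds depended on the arm for 8 genes in the interaction test of edgeR over 76 genes. The change, IgA minus vehicle mice, was −0.516 for Itpk1, −0.646 for Ipmk, 0.222 for Commd4, −0.229 for Ripk1 and −0.120 for Tmem57. It was −0.0902 for Bak1 (adjusted p = 0.0416), −0.0833 for Casp9 (adjusted p = 0.0416) and −0.0870 for Gsdmd (adjusted p = 0.0273). With each of the 8 mice left out in turn, Itpk1, Ipmk, Commd4, Ripk1 and Tmem57 passed in all 8 fits. Bak1 was lost without mouse 2, 3, 4, 5, 7 or 8, Casp9 without 2, 3, 5 or 8, and Gsdmd without 2, 3 or 8. None of Bak1, Casp9 and Gsdmd passed under TMM scaling.

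In 6 of 76 genes, the log2 difference of 1 mouse stood far from those of the other 3, where chance flags about 1 in 20 such groups. These were Bbc3 in mouse 3 (−0.406, others −0.378 to −0.374), Dpysl4 in mouse 4 (−0.0307, others 0.0211 to 0.0301), F730015K02Rik in mouse 3 (0.112, others 0.00378 to 0.0141), Ifngr2 in mouse 1 (−0.100, others −0.0171 to −0.0153), Mag in mouse 4 (0.0241, others 0.00588 to 0.00769) and Tnfaip8l1 in mouse 3 (0.118, others 0.0660 to 0.0743).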

How the results depend on the processing

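Of the 40 genes called, 21 kept their call and direction in all 17 alternative settings, among them Itpk1, Ipmk, Txnl4b, Daxx, Grb2, Bbc3, Eif5b, Tmem57, Hspbap1, Commd4, Bax, Ifnar1, Acsl4, Spata2, Parp2, Cd27 and Ripk1. The other 19 calls, of which Fadd (−0.12) was the largest, were lost in at least 1 setting, 17 of them when a mouse was left out. Without the most abundant sgRNA of each gene, S100a7a went from −0.045 to 0.044 and 4933439F11Rik from −0.019, not called, to 0.077 (adjusted p = 0.0252 by edgeR). With each mouse left out, 9 to 13 genes were higher and 19 to 27 lower, 19 to 30 sgRNAs higher and 49 to 53 lower. The count of higher sgRNAs was 19 without mouse 3. Against 13 higher and 27 lower genes, total counts as scaling gave 22 and 20, DESeq2's size factors 18 and 22, and TMM 19 and 20. The median gene moved from −0.014 to 0.0049 under total counts, where 33 of the 40 calls were shared, as under TMM. DESeq2's Wald test called 19 sgRNAs higher and 41 lower, against 33 and 62, and 9 genes higher and 20 lower. Without the replicate block, 13 genes were higher and 27 lower, and 32 sgRNAs higher and 60 lower; all 40 gene calls were shared. For the dependence on the arm, TMM gave 2 genes higher in IgA mice (Commd4 and Zbp1) and 3 lower, against 1 and 7. Leaving out a mouse gave 1 higher gene in all 8 fits, 4 to 18 lower, with 14 without mouse 1, 18 without mouse 6 and 4 without mouse 2, 3 or 8. The Gini difference ran from 0.00343 to 0.00571 with a mouse left out. Depth limits the rare sgRNAs of Ipmk, Txnl4b and Grb2.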
